A study of Mus musculus with 7 samples.

Results

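The 9 genes described here carry cholesterol into, through and out of a cell. They were taken by name from the 23282 entries of the gene table. No measured value was in the rule, but the genes were chosen with earlier results of these data known. They are the lipoprotein receptors Scarb1 and Lrp8, the lysosomal export proteins Npc1 and Npc2, the cytosolic carrier Stard4, the ester synthase Soat1, the ester hydrolase Lipe, the droplet coat protein Plin2 and the efflux pump Abca1. Each symbol matched 1 entry.

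Cells take up cholesterol in lipoproteins, through receptors that bring the whole particle into lysosomes or, in the case of Scarb1, by drawing cholesteryl ester out of high-density lipoprotein at the surface. Cholesterol freed in lysosomes leaves them through the hand-over from Npc2 to Npc1, surplus is esterified and kept in lipid droplets, and the excess is pumped to apolipoproteins. In the brain most cholesterol is made locally and passed between cells on Apoe particles, while adrenal and gonadal cells draw on lipoprotein cholesterol and stored ester for steroid synthesis.

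RNA came from tdTomato-positive cells sorted from glioblastomas of adult C57BL/6 mice, and libraries were made by QuantSeq, which reads tags near the 3' end of polyadenylated RNA. The 7 libraries were 3 from WT mice (genotype WT) and 4 from Fyn-KO mice (genotype FYN-KO, a knockout of the Src family kinase Fyn). Per the design text, cells were sorted and libraries made separately for each mouse. No label says which cells carried the knockout, which part of Fyn was removed or how the tumours were started, and no treatment or batch is labelled.

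The libraries held 8976745 to 16371244 counts. Fyn stood at 720 to 1604 counts per 1000000 (CPM) in WT and at 74.5 to 190 CPM in Fyn-KO (log2 fold change -3.43, adjusted p = 0.0121 in the edgeR quasi-likelihood test). In the Fyn-KO libraries the glial markers were low and markers of steroid-producing cells were high. The 12 oligodendrocyte lineage markers summed to 14830 to 30830 CPM in WT and to 361 to 1526 CPM in Fyn-KO, and 15 markers of steroid-producing cells summed to 129 to 318 CPM in WT, where 8 had no count (Akr1b7, Mgarp, Nr5a1, Mrap, Cyp17a1, Cyp11b1, Cyp21a1 and Lhcgr), and to 27480 to 32470 CPM in Fyn-KO, where none was at 0. In these markers the Fyn-KO libraries went against the tumour cell label. In hepatocyte and lung epithelium markers the WT libraries went against it too. The 8 hepatocyte markers summed to 269 to 444 CPM in WT and to 4.23 to 10.1 CPM in Fyn-KO, where 5 of them had no count. Apoa1, one of the 8 and named here after its values were seen, went the other way. It read 0 to 0.504 CPM in WT and 3.62 to 8.18 CPM in Fyn-KO. For 6 lung epithelium markers the sums were 118 to 791 CPM in WT and 0.107 to 7.98 CPM in Fyn-KO. The WT libraries also missed genes from one to the next. Of 4827 genes at 100 CPM or more in at least 1 WT library, 2002 (41.5%) lay under 1 CPM in another WT library, against 1 of 2524 genes in Fyn-KO. The part of these marker and detection differences in the results below was not tested. In bulk RNA a lower share of cells of a type and less RNA per cell cannot be told apart.

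Ester synthesis, cytosolic sterol transfer and efflux held the members that rose in Fyn-KO. Soat1, Stard4 and Abca1 rose, none of the 9 fell, and 6 did not pass the test, which compared Fyn-KO with WT in edgeR's quasi-likelihood fit with Benjamini-Hochberg adjustment over all 13122 tested genes. All 9 were among those genes. The members' count of 3 of 9 compares with 19.0% of all tested genes called higher and 3.51% called lower. In CPM, 6 members (Scarb1, Npc2, Stard4, Soat1, Lipe and Abca1) lay above WT in every Fyn-KO library and the other 3 overlapped, while 30.1% of tested genes lay wholly above and 7.32% wholly below. The median log2 fold change was 3.58 over the members, the value of Lipe, which did not pass, and 0.45 over all tested genes. As the members were chosen with earlier results known, these comparisons do not rest on a blind choice. The number of members that rose was 1 (Soat1) without Fyn-KO replicate 1, 2 or 4.

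**Figure D1:**
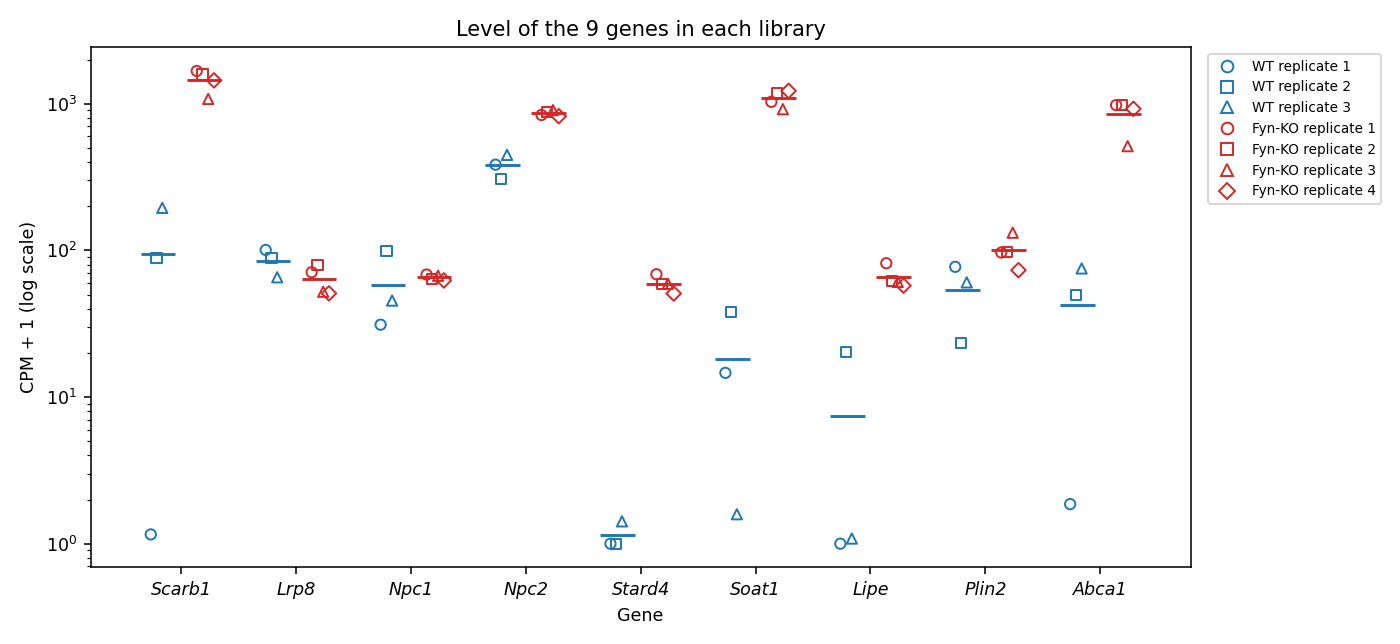
Level of each gene in each library, as CPM plus 1 on a log axis, with symbols for replicates and short lines at the group means. Fyn-KO replicate 3 stood below the other Fyn-KO libraries for Abca1, and WT libraries ranged from 0.157 to 194 CPM for Scarb1 and from 0.588 to 37.0 CPM for Soat1.

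The promoters shown are of Soat1, Abca1, Npc2 and Lipe, whose start regions hold a match to at least 1 of 5 motifs searched on both strands. At most 4 were to be printed, those with a match first and then by adjusted p. Plin2 also held matches but had a higher edgeR adjusted p (0.589). The sequences are from RefSeq (GRCm38.p6), on the minus strand of each chromosome, running 5' to 3' from 250 bases before to 50 bases after the start site. Capitals mark an E box (CACGTG) or a Sp1 GC box (GGGCGG, or its reverse complement).
Soat1 promoter: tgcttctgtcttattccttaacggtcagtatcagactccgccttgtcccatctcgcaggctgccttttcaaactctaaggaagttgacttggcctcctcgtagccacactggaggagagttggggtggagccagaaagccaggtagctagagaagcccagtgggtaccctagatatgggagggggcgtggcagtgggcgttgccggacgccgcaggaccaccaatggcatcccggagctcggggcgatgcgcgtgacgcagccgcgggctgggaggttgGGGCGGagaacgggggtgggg
Abca1 promoter: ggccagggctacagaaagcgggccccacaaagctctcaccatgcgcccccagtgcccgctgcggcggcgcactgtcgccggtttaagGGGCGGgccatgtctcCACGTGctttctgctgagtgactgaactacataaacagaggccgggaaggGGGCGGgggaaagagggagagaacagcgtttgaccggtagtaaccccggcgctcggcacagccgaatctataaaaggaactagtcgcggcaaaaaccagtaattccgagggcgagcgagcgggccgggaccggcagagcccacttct
Npc2 promoter: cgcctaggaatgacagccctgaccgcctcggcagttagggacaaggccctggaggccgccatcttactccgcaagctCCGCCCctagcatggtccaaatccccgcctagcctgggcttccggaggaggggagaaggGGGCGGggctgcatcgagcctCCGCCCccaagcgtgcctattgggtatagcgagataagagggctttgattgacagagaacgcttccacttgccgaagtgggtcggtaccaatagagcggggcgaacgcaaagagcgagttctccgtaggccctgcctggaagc
Lipe promoter: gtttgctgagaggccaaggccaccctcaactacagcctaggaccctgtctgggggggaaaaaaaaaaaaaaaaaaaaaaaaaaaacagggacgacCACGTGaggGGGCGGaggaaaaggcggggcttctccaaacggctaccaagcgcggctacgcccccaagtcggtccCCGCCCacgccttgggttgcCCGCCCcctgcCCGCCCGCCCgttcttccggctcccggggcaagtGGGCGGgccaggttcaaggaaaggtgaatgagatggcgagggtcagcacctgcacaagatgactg
The windows lie at chr1:156474279-156474578 (Soat1), chr4:53159846-53160145 (Abca1), chr12:84773063-84773362 (Npc2) and chr7:25395938-25396237 (Lipe, a start inside the annotated gene). Of the 9 members, 6 had an entry, namely these 4, Lrp8 and Plin2, with 9 windows in all, since Lrp8 has 3 and Lipe 2. The GC box was present in 5 of the 9 windows and in 35.7% of 32851 promoters of the same length, and the E box in 3 of the 9 windows (of Abca1, Lipe and Plin2) and in 7.15%. The other Lipe window and the 3 of Lrp8 held no match. The printed Lipe window held 6 GC box matches, 2 of them overlapping each other, Npc2 held 3 and Abca1 held 2. The steroidogenic factor 1 site (CAAGGTCA), the sterol response core (TCACNCCAC) and the cyclic AMP response element (TGACGTCA) were in none of the 9 windows, against 1.56%, 1.24% and 1.79% of all promoters. A match or its absence describes only these letters in these windows.

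Of the receptors, Scarb1 stood higher in every Fyn-KO library but did not pass the test, and Lrp8 overlapped between the groups. Scarb1 (ENSMUSG00000037936.15, GRCm38 chromosome 5, 125277087 to 125341094, minus strand), the receptor for high-density lipoprotein, read 0.157, 88.0 and 194 CPM across the 3 WT libraries, against 1671, 1579, 1077 and 1442 CPM across the 4 Fyn-KO libraries. The lowest Fyn-KO library stood above the highest WT library, and WT replicate 1 held only 2 counts. The means were 94.1 ± 97.1 CPM (SD, n = 3) and 1442 ± 261 CPM (SD, n = 4), a ratio of 15.3, and the fitted log2 difference was 3.69 ± 1.55 (SE, edgeR adjusted p = 0.137). Without WT replicate 1 the same test called it (log2 fold change 3.10, adjusted p = 0.0145), and so did DESeq2 on all libraries (adjusted p = 0.0396). Scarb1 took the largest share of the 9 genes' tags in each Fyn-KO library.

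Lrp8 (ENSMUSG00000028613.14, chromosome 4, 107802261 to 107876840, plus strand), the reelin and Apoe receptor of neural cells, read 99.7, 87.9 and 64.6 CPM across WT, against 70.0, 78.6, 51.2 and 49.9 CPM across Fyn-KO. The groups overlapped, and the log2 fold change was -0.48 ± 0.65 (SE, edgeR adjusted p = 0.706). Every WT library held Lrp8, with 769 counts or more. Neuron markers, 8 in all, summed to 230 to 664 CPM in WT and 44.4 to 84.3 CPM in Fyn-KO, and their part in the level of Lrp8 was not tested.

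Among 20 tested genes of lipoprotein uptake, 3 rose, 2 fell and 15 did not pass, with a median log2 fold change of 0.90. Lrp1, a large endocytic receptor for Apoe, fell from 850 ± 495 to 267 ± 13.2 CPM (log2 fold change -1.71), and Cd36, a scavenger and fatty acid receptor, from 177 ± 153 to 6.61 ± 2.09 CPM (-5.00). Lipg, an endothelial lipase that acts on high-density lipoprotein, rose from 2 counts in all WT libraries to 271 ± 64.1 CPM, a ratio of pooled counts of 5612 with a 95% counting interval of 1553 to 46350. Lsr, a receptor stimulated by lipolysis, rose from 0.162 ± 0.141 to 138 ± 16.8 CPM. Msr1, a scavenger receptor of macrophages, went uncounted in WT and rose to 4.59 ± 2.69 CPM, a mean 18.2-fold above a floor of 3 counts per library. These 5 calls held when any 1 library was left out. The 14 macrophage markers summed to 202 to 578 CPM in WT and to 430 to 497 CPM in Fyn-KO, and 8 endothelial markers summed to 0.705, 20.1 and 1070 CPM in WT and to 339 to 432 CPM in Fyn-KO. The number that rose was 5 without WT replicate 1 and 8 without WT replicate 2 or 3.

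The lysosomal pair differed in their data. Npc2 (ENSMUSG00000021242.9, chromosome 12, 84754562 to 84773152, minus strand), the soluble protein that binds cholesterol inside the lysosome, read 383, 306 and 447 CPM across WT, against 837, 881, 904 and 821 CPM across Fyn-KO. It was the steadiest member in WT, and the groups were well apart. The means were 379 ± 70.4 CPM (SD, n = 3) and 861 ± 38.2 CPM (SD, n = 4), a ratio of 2.27, and the fitted log2 difference was 1.06 ± 0.34 (SE, edgeR adjusted p = 0.0550). The call depended on the setting. With library totals alone it passed in edgeR (log2 fold change 1.18, adjusted p = 0.0107), and with factors from genes detected in both groups it did too (1.46, adjusted p = 0.0106), a scaling that moved the median of all genes from 0.45 to 0.73. The edgeR test also passed without WT replicate 3 (1.42, adjusted p = 0.00988) or Fyn-KO replicate 3 (1.14, adjusted p = 0.0485), and in limma-voom (1.41, adjusted p = 0.0489). It did not pass with RLE factors (adjusted p = 0.0552 in edgeR) or in DESeq2 (adjusted p = 0.246).

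Npc1 (ENSMUSG00000024413.14, chromosome 18, 12189692 to 12236400, minus strand), the membrane protein that receives cholesterol from Npc2, read 30.1, 97.7 and 44.5 CPM across WT, against 67.5, 63.0, 66.1 and 61.4 CPM across Fyn-KO. All Fyn-KO values lay inside the WT range. The log2 fold change was 0.18 ± 0.74 (SE, edgeR adjusted p = 0.918) and became -0.12 without WT replicate 1. The 3' end of Npc1 overlaps that of Rmc1 on the other strand by 967 bases, and since the strand of counting is not given, tags there cannot be assigned to either gene. Rmc1, found in the table under its earlier symbol 3110002H16Rik, had 0, 615 and 0 counts in WT and 373, 232, 115 and 85 in Fyn-KO, against 385, 1600 and 530 and 633, 655, 604 and 551 for Npc1. Of 16 tested genes of lysosomal and endosomal export, 1 rose, none fell and 15 did not pass, with a median log2 fold change of 0.22. Lamp1, a lysosomal membrane protein, stood at 541 ± 185 and 757 ± 17.5 CPM (edgeR adjusted p = 0.662). The number that rose was 3 without WT replicate 1, 2 without Fyn-KO replicate 3 and 4 without WT replicate 3, Lamp1 then among them (edgeR adjusted p = 0.0165).

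Stard4 was close to undetected in WT and present in every Fyn-KO library. Stard4 (ENSMUSG00000024378.9, chromosome 18, 33199355 to 33213862, minus strand), a small soluble carrier that moves sterol between membranes, read 0, 0 and 0.420 CPM across WT, against 67.8, 58.0, 58.2 and 49.8 CPM across Fyn-KO. The WT libraries held 5 counts together, all in WT replicate 3, against 2218 in Fyn-KO. The ratio of pooled counts was 481 with a 95% counting interval of 206 to 1482, which covers counting error only. The log2 fold change was 8.29 ± 2.17 (SE, edgeR adjusted p = 0.0261), a size that 5 counts set loosely. Leaving out any 1 Fyn-KO library took the call away (adjusted p 0.0606 to 0.0736), with log2 fold changes of 8.22 to 8.44, and so did limma-voom (9.68, adjusted p = 0.294).

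Of 22 tested intracellular sterol carriers, 5 rose including Stard4, none fell and 17 did not pass, with a median log2 fold change of 1.88. Tspo, a cholesterol-binding protein of the outer mitochondrial membrane, rose from 1.34 ± 2.17 to 217 ± 21.5 CPM, and Stard5, a relative of Stard4, from 0.774 ± 1.13 to 36.1 ± 7.11 CPM. Gramd1b, which moves cholesterol from the plasma membrane to the endoplasmic reticulum, and Osbp2, an oxysterol-binding protein, went uncounted in WT. They reached 28.3 ± 17.0 and 9.15 ± 4.14 CPM, means 112-fold and 36.3-fold above the floor of 3 counts per library. Tspo, Gramd1b and Osbp2 were called whichever library was left out, and Stard5 was not called without any 1 Fyn-KO library (adjusted p up to 0.0960). The number that rose was 3 without any 1 Fyn-KO library and 11 without WT replicate 2. Star, the related carrier of mitochondria, named here after its values were seen, read 0, 0 and 37.4 CPM across WT, against 3962 to 4917 CPM across Fyn-KO (edgeR adjusted p = 0.0559).

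Soat1 had the lowest adjusted p of the 9. Soat1 (ENSMUSG00000026600.12, chromosome 1, 156424525 to 156474331, minus strand), which makes cholesteryl ester in the endoplasmic reticulum and whose start region is printed above, read 13.6, 37.0 and 0.588 CPM across WT, against 1029, 1178, 917 and 1223 CPM across Fyn-KO. The lowest Fyn-KO value was well above the highest WT value, although the WT libraries differed 63.0-fold among themselves. The means were 17.1 ± 18.5 CPM (SD, n = 3) and 1087 ± 140 CPM (SD, n = 4), a ratio of 63.6. The log2 fold change was 6.16 ± 1.13 (SE, edgeR adjusted p = 0.0121), and the call held when any 1 library was left out (adjusted p 0.00350 to 0.0245). It was lost in limma-voom with sample quality weights (adjusted p = 0.0766).

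Lipe, which releases cholesterol from stored ester and is also known as hormone-sensitive lipase, had nearly all of its WT counts in 1 library. Lipe (ENSMUSG00000003123.15, chromosome 7, 25379527 to 25398710, minus strand) read 0, 19.2 and 0.0840 CPM across WT, against 80.8, 60.7, 60.0 and 56.5 CPM across Fyn-KO. WT replicate 2 held 315 of the 316 WT counts, and every Fyn-KO library stood above it. The means were 6.44 ± 11.1 CPM (SD, n = 3) and 64.5 ± 11.0 CPM (SD, n = 4), a ratio of 10.01, with a log2 fold change of 3.58 ± 2.08 (SE, edgeR adjusted p = 0.302). Without WT replicate 2 edgeR called it (log2 fold change 9.97, adjusted p = 0.00496). The antisense gene 4732471J01Rik spans all of Lipe and went uncounted in WT and had 11, 63, 7 and 79 counts in Fyn-KO, against 758, 631, 548 and 507 for Lipe. Since the strand of counting is not given, tags of the pair cannot be told apart.

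Plin2 (ENSMUSG00000028494.12, chromosome 4, 86648386 to 86670060, minus strand), the coat protein found on droplets of most cell types, read 76.2, 22.3 and 59.5 CPM across WT, against 95.7, 96.6, 131 and 72.3 CPM across Fyn-KO. Fyn-KO replicate 4 lay below WT replicate 1, so the groups overlapped. The log2 fold change was 0.77 ± 0.76 (SE, edgeR adjusted p = 0.589). Other droplet coat genes differed more. Of 22 tested genes of ester synthesis, droplets and hydrolysis, 7 rose, 1 fell and 14 did not pass, with a median log2 fold change of 1.199. Plin4, a coat protein of adipocytes and muscle, rose from 43.6 ± 7.35 to 229 ± 55.7 CPM. Plin3, a coat protein of many tissues, rose from 0.181 ± 0.216 to 89.2 ± 17.8 CPM. Plin5, a coat protein that links droplets to mitochondria, went uncounted in WT and reached 33.9 ± 16.4 CPM, a mean 134.5-fold above the floor. Ldah, a droplet-associated hydrolase, rose from 2 counts in all WT libraries to 31.5 ± 11.2 CPM, a ratio of pooled counts of 647 (95% counting interval 179 to 5352). Mgll, monoacylglycerol lipase, fell from 364 ± 92.3 to 91.7 ± 25.4 CPM. Plin3 and Plin5 were called whichever library was left out. Plin4, Ldah and Mgll were not called without Fyn-KO replicate 1 or 2 (adjusted p up to 0.0524, 0.0541 and 0.0523). The number that rose was 4 without Fyn-KO replicate 1 or 2, when none fell, and 11 without WT replicate 2, and 2 fell without any 1 WT library. The 6 adipocyte markers summed to 0 to 1.18 CPM in WT and to 10.3 to 31.6 CPM in Fyn-KO, where Adipoq, Cidec and Lep had no count. Plin1, named here after its values were seen, is both an adipocyte marker and one of the droplet genes that rose. It went uncounted in WT and read 4.90 to 20.4 CPM in Fyn-KO, so the marker sum is not separate from these genes. The part of the adipocyte markers in the droplet genes was not tested.

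**Figure D2:**
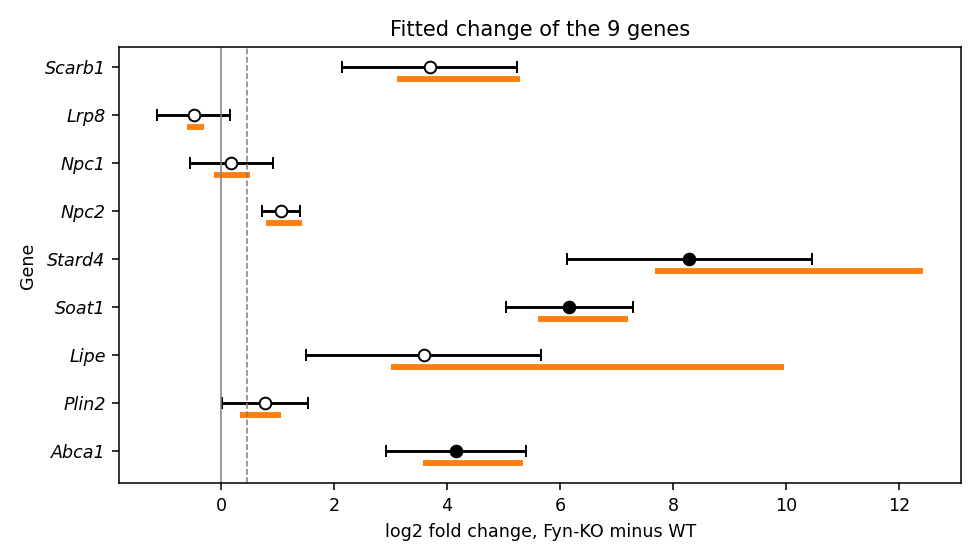
Fitted log2 fold change, Fyn-KO minus WT, of each gene (circle, filled where adjusted p was under 0.05) with its SE, and below it in orange the range when 1 library was left out. The dashed line is the median of all tested genes at 0.45. The orange bar of Lipe runs from 3.00 to 9.97, and that of Soat1 from 5.60 to 7.20.

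Abca1 rose, with a call close to the threshold. Abca1 (ENSMUSG00000015243.4, chromosome 4, 53030787 to 53159895, minus strand), which loads cholesterol and phospholipid onto apolipoproteins, read 0.861, 48.9 and 74.3 CPM across WT, against 977, 975, 513 and 922 CPM across Fyn-KO. Every Fyn-KO library stood above every WT library, WT replicate 1 held 11 counts, and Fyn-KO replicate 3 stood below the other Fyn-KO libraries. The means were 41.3 ± 37.3 CPM (SD, n = 3) and 847 ± 224 CPM (SD, n = 4), a ratio of 20.5, with a log2 fold change of 4.16 ± 1.24 (SE, edgeR adjusted p = 0.0460). The call was lost without WT replicate 2 or any 1 Fyn-KO library (adjusted p 0.0654 to 0.0967), with log2 fold changes of 4.06 to 4.46. It was also lost where edgeR was run on genes detected in both groups alone (4.57, adjusted p = 0.0940) and in limma-voom (5.30, adjusted p = 0.293).

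Of 16 tested efflux pumps and lipoprotein acceptors, 5 rose including Abca1, none fell and 11 did not pass, with a median log2 fold change of 2.32. Apoe, the main lipoprotein component made by glia and macrophages, rose from 602 ± 336 to 1287 ± 60.7 CPM (log2 fold change 1.14, edgeR adjusted p = 0.0494). Clu, an apolipoprotein also called clusterin, rose from 27.4 ± 39.0 to 722 ± 167 CPM. Abca8a, a pump of the same family as Abca1, rose from 1 count in all WT libraries to 36.2 ± 17.1 CPM, a ratio of pooled counts of 1482 (95% counting interval 266 to 58590). Abcg4, a pump of neural cells and glia, went uncounted in WT and reached 6.30 ± 1.84 CPM, a mean 25-fold above the floor. Apoe was not called without any 1 Fyn-KO library (adjusted p up to 0.115), nor Clu without WT replicate 1 or Fyn-KO replicate 3 (up to 0.0661). The number that rose was 3 without Fyn-KO replicate 2 or 4 and 2 without Fyn-KO replicate 3, and 1 gene fell without WT replicate 1 or 3.

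Abca1 and Stard4 each belong to a known set of sterol-regulated targets. Liver X receptors, which sense oxysterols, switch on Abca1. Of 12 tested targets of these receptors, 4 rose, none fell and 8 did not pass, with a median log2 fold change of 1.14. Beside Abca1, Apoe and Abcg4 these were the receptor gene Nr1h3, which rose from 1 count in all WT libraries to 14.5 ± 9.0 CPM. The number was 2 without any 1 Fyn-KO library. Abcg1, another classical target, named here after its values were seen, read 202, 4.95 and 0 CPM across WT, against 12.04, 6.16, 1.42 and 8.02 CPM across Fyn-KO (edgeR log2 fold change -3.36, adjusted p = 0.342), and without WT replicate 1 its log2 fold change was 1.71. SREBP2, which acts when membrane cholesterol is low, switches on Stard4. Of 17 tested SREBP2 targets, 3 rose, none fell and 14 did not pass, with a median log2 fold change of 1.95. Beside Stard4 these were the synthesis enzymes Hmgcs1, which rose from 112 ± 63.4 to 2707 ± 501 CPM, and Lss, which rose from 1 count in all WT libraries to 77.3 ± 1.53 CPM. The number was 2 without any 1 of the Fyn-KO libraries, 6 without WT replicate 1 and 7 without WT replicate 2. Across all lists, 21 of the 106 tested genes that are not members rose (19.8%) and 3 fell (2.83%), shares near those of all tested genes.

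**Figure D3:**
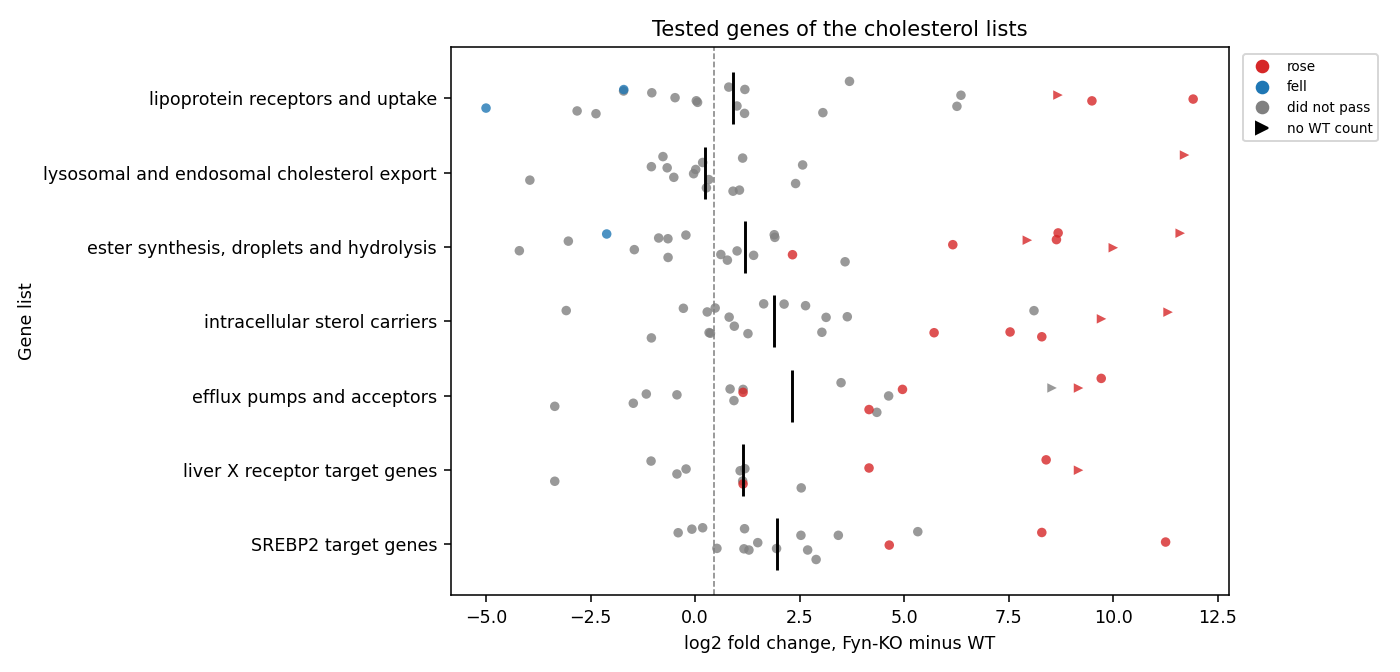
Fitted log2 fold change, Fyn-KO minus WT, of each tested gene of the 7 lists, members included, red where it rose, blue where it fell and grey where it did not pass. Triangles are genes with no WT count, whose fitted size the counts do not set, and black bars are list medians, from 0.22 for lysosomal export to 2.32 for efflux. The dashed line is the median of all tested genes, 0.45.

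The balance among the 9 genes differed between the groups, a comparison that library scaling does not touch. Together they summed to 604, 707 and 885 CPM in WT and to 4896, 4969, 3777 and 4698 CPM in Fyn-KO. Npc2 supplied 63.5%, 43.3% and 50.5% of their tags in WT and 17.1%, 17.7%, 23.9% and 17.5% in Fyn-KO. Its share was lower in every Fyn-KO library although its CPM was higher. Scarb1, Soat1 and Abca1 together held most of the tags in Fyn-KO, with mean shares of 31.3 ± 2.33%, 23.8 ± 2.08% and 18.2 ± 3.09% (SD, n = 4), against 11.5 ± 11.0%, 2.52 ± 2.59% and 5.15 ± 4.4% in WT (SD, n = 3). Lrp8 had a mean share of 12.1 ± 4.62% in WT and 1.36 ± 0.218% in Fyn-KO, at overlapping CPM. No test was run on the shares.

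**Figure D4:**
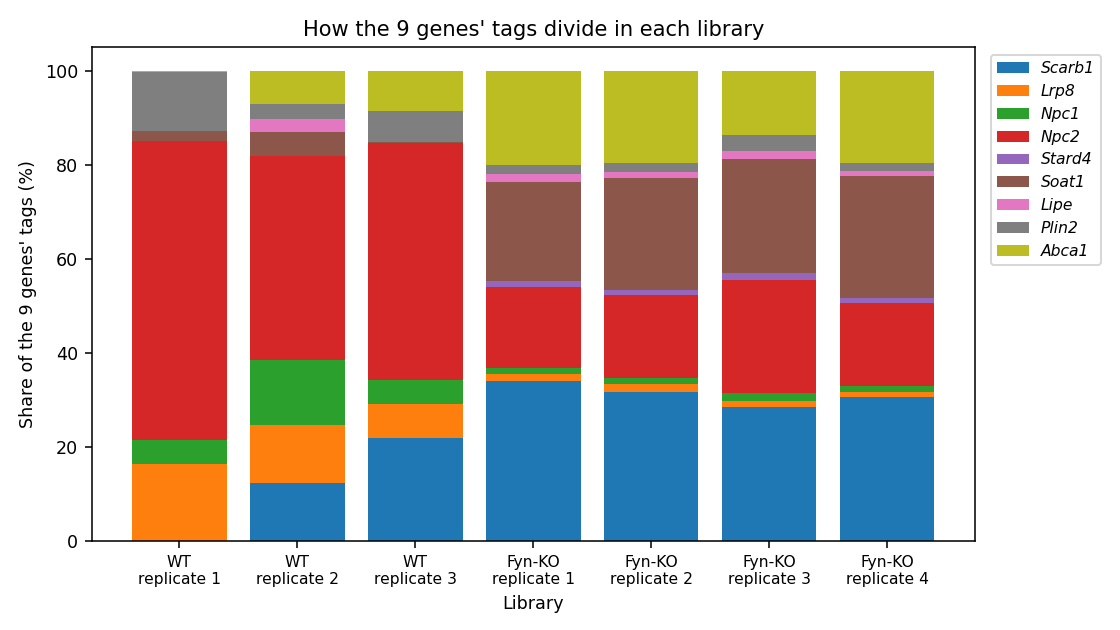
Share of the 9 genes' summed tags taken by each gene, in percent, 1 bar per library. Npc2 took 43.3% to 63.5% in WT and 17.1% to 23.9% in Fyn-KO, and Scarb1 took 28.5% to 34.1% in Fyn-KO.

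The members varied far more among WT than among Fyn-KO libraries. The coefficient of variation of CPM ran from 18.6% (Npc2) to 173% (Stard4) in WT and from 4.32% (Npc1) to 26.5% (Abca1) in Fyn-KO, and it was higher in WT for 8 of the 9 genes, Lrp8 being the exception. Scarb1, Soat1, Lipe, Stard4 and Abca1 each lay under 1 CPM in at least 1 WT library, and none of the 9 lay under 49.8 CPM in any Fyn-KO library. Lrp8, Npc1, Npc2 and Plin2, the 4 members with the smallest fitted differences, and Abca1 held 10 or more counts in every library. WT replicate 1 was the lowest WT library for Scarb1, Abca1, Npc1 and Lipe, WT replicate 2 for Npc2 and Plin2, and WT replicate 3 for Soat1 and Lrp8, while Stard4 was at 0 in WT replicates 1 and 2.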

How the data were processed

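The 9 genes and the lists around them were chosen with earlier results of these data known. The authors deposited a table of whole-number read counts per gene symbol, not normalized as far as the values show, from QuantSeq 3' libraries of FACS-sorted tumour cells. The submitters' processing notes name Bowtie2, bedtools and DESeq2 1.32.0 with mm10 (GRCm38), without an annotation, a counting rule or a strand. The columns have 1 member, called WT replicate 3 here, that the labels tie to the WT group but not to 1 mouse. CPM were counts per 1000000 of the library's total. Genes passing edgeR's filterByExpr (minimum count 10, minimum total 15) were fitted in edgeR 4.0.16 (R 4.3.3) with TMM factors and group as the only term, tested by quasi-likelihood and called at a Benjamini-Hochberg adjusted p under 0.05. The procedure was run on simulated counts with the same spread for every gene in both groups. Simulated libraries did not miss genes from one to the next as WT did. The run therefore cannot show how the test behaves with such gaps. The genes named are all members and, of each pathway list, those that passed the test (the 6 of highest mean CPM where more did, and where fewer than 2 did, also those of highest mean CPM up to 2), and any others are said to be named after their values were seen. Alternatives were RLE factors, library totals alone, TMM factors from genes detected in both groups (2 WT and 3 Fyn-KO libraries), DESeq2 1.42.0, limma-voom (limma 3.58.1), a minimum count raised to 50 or dropped, a replicate block and each library left out. Where WT had no count, the floor was 3 counts per library (0.252 CPM at the shallowest WT library). Folds above the floor use the Fyn-KO mean and do not allow for genes that WT libraries missed. Intervals at 95% and floors cover counting error only. The intervals rest on counts pooled over the libraries of a group and leave out the spread between libraries. Tags carried no molecular identifier that the sources name. Libraries of a group differed by more than sampling noise. The mean chi-square per gene was 24.5 to 78.7 between Fyn-KO libraries and 800 to 1062 between WT libraries. Gene positions are from the GRCm38 annotation. Some genes of the lists are not reported here by name.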

Additional observations from a re-analysis of the deposited data

Results flagged for a closer look

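Abca1 stood at 512.7 CPM in Fyn-KO replicate 3, apart from the other 3 Fyn-KO libraries at 922 to 977 CPM. Its gap to the nearest of them was 0.881 of the group's range, above Dixon's critical value of 0.829 for 4 libraries. The 9 members' Fyn-KO groups were examined this way and 1 was flagged, and chance flags about 1 in 20 groups. In the same library the steroid-producing cell markers had the lowest sum of the Fyn-KO libraries (27480 CPM) and the oligodendrocyte lineage markers the highest (1526 CPM), and their part in the level of Abca1 was not tested. Without this library Abca1 had a log2 fold change of 4.46 and was not called. The call was likewise lost without any other Fyn-KO library or without WT replicate 2.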

How the results depend on the processing

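The number of genes called higher was 2493 and lower 461. With only genes detected in both groups these were 52 and 146, in limma-voom 24 genes were higher, and in DESeq2 774 were lower. Leaving out each library gave 2190 to 4585 higher and 247 to 839 lower. Of the members, 3 were higher (Soat1, Stard4 and Abca1). In limma-voom 1 was, which was Npc2 and none of those 3, and with each library left out 1 to 4 were, and none was lower in any setting run. Of the pathway list genes, 24 were higher and 3 lower. With only genes detected in both groups these were 5 and 0, limma-voom called 1 higher and DESeq2 5 lower, and leaving out each library gave 17 to 43 higher and 2 to 6 lower. The same-number correlations of replicates 1 and 2 were -0.025 and 0.000876, too few values to show whether equal numbers mark a pair. The replicate block could use only replicates 1 and 2 of each group. It called 220 genes higher and 216 lower, 3 members higher (Soat1, Abca1 and Scarb1, with Stard4 lost at an edgeR adjusted p of 0.572), and 12 list genes higher and 1 lower. The same 4 libraries without the block, an alternative chosen after seeing the data, gave 5 and 5 genes, 0 members, and 2 and 0 list genes. Npc1 ran from -0.12 to 0.51 on the log2 scale with each library left out and Abcg1 from -3.95 to 1.71, and Abcg1 was 1.20 in limma-voom. The cause of these shifts was not tested. Over all settings, 123 of 151 values of the members kept direction and side of the threshold. These include genes that were never called, such as Lrp8 and Plin2 with 17 values each. Soat1 kept its call in 15 settings and lost it in 2. Abca1 kept its call in 9 and lost it in 8, and Stard4 kept it in 9 and lost it in 7. Genes near 0 counts in WT limit what depth can show of their size.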
